A study of Mus musculus with 3 samples.

Results

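The guide strands of 7 microRNAs (miRNAs) known from neurons were followed in the developing mouse retina. They are mmu-miR-128-3p, mmu-miR-137-3p, mmu-miR-138-5p, mmu-miR-139-5p, mmu-miR-149-5p, mmu-miR-153-3p and mmu-miR-218-5p. The set was chosen by name from the 1915 mature miRNAs listed, and all 7 had a mean of at least 1 RPM, as did 648 miRNAs in all. RPM is the number of reads of a miRNA scaled to a total of 1000000 miRNA reads. Small RNA was sequenced from retinas of C57BL/6 mice (C57BL/6J in the study's methods) on postnatal days 1, 7 and 17 (P1, P7 and P17), in order to find miRNAs whose level changes as the retina develops. Each age is represented by 1 library, for which the retinas of 5 eyes were pooled, and the labels give no treatment and no genetic change. For P1, P7 and P17 the miRNA reads numbered 11426320, 12759995 and 11659722. Because each age has a single library, the spread between animals is unknown and no difference between ages could be tested. The intervals given are therefore 95% intervals for counting error only. Reads copied by PCR were not traced back to single molecules, so the intervals treat each read as a separate molecule and can be too narrow. A lower level in whole retina can come from fewer cells that hold the miRNA or from less of it in each cell. As RPM is a share of the miRNA reads, it can also come from other miRNAs that take more of them. These cannot be told apart here.

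A miRNA is cut from a hairpin precursor by the enzymes Drosha and Dicer, and the arm that is kept, the guide strand, directs an Argonaute protein to messenger RNAs that pair with its seed, bases 2 to 8 from the 5′ end. Several miRNAs are far more abundant in neurons than in other cells and are known to act on neurite growth, synapses and excitability. In the mouse retina the first postnatal weeks are the time when the last neurons and the photoreceptors are born, synapses form and the eyes open.

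The mature sequences are shown because the seed decides which messenger RNAs a miRNA can pair with. They are given 5′ to 3′ with the seed in capitals, and come from RefSeq for GRCm38, the build that is also called mm10.

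mmu-miR-218-5p: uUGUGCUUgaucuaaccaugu

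mmu-miR-128-3p: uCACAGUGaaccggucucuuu

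mmu-miR-149-5p: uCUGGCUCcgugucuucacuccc

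mmu-miR-139-5p: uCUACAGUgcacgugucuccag

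mmu-miR-153-3p: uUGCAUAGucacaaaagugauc

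mmu-miR-138-5p: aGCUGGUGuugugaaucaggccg

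mmu-miR-137-3p: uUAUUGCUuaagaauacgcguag

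The 7 seeds all differ, so the set is not a seed family. The whole seed of miR-218-5p occurred in 1 further entry of the RefSeq table, miR-7002-3p, which had 0 reads at every age, and the other seeds occurred in none. MiR-128-3p, miR-138-5p and miR-218-5p are each made from 2 hairpins that give an identical guide strand, so the 7 miRNAs come from 10 hairpins. Introns of protein-coding genes on the same strand hold 7 of these hairpins. The hairpins of miR-218-5p lie in Slit2 (chr5:48223942-48224051, plus strand) and Slit3 (chr11:35616816-35616925, plus strand), genes of secreted axon guidance factors. MiR-139-5p lies in Pde2a (chr7:101475376-101475443, plus strand), a gene of a cyclic nucleotide phosphodiesterase, and also in an intron of the overlapping protein-coding gene Gm45837 on the same strand. The hairpin of miR-149-5p lies in Gpc1 (chr1:92850378-92850443, plus strand), the gene of the proteoglycan glypican 1, and that of miR-153-3p in Ptprn2 (chr12:117250817-117250885, plus strand), which encodes a protein of dense-core vesicles. Noncoding genes hold the other 3 hairpins within an exon, namely Gm26871 for miR-137-3p (chr3:118433857-118433929, plus strand) and Gm47135 and C78859 for the hairpins of miR-138-5p.

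The set was dominated by miR-218-5p and miR-128-3p at every age, and its share of the miRNA reads was largest at P1. Together the 7 guide strands took 30451 RPM at P1, or 3.05% of the miRNA reads. At P7 they took 10348 RPM (1.03%), and at P17 they took 10623 RPM (1.06%). The sum was therefore 2.94-fold lower at P7 than at P1, a log2 change of -1.56 (95% interval -1.57 to -1.55), and differed by only 0.04 on the log2 scale between P7 and P17. MiR-218-5p alone made up 62.7, 51.7 and 49.5% of this sum in the order of age, and with miR-128-3p it made up 93.5%, 91.7% and 87.7%.

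MiR-218-5p, which is known from motor neurons and whose host genes encode Slit proteins, showed the largest difference between ages within the set in RPM. The P1 library held 19098 RPM (19019 to 19178, Wilson interval), the P7 library 5353 RPM (5313 to 5393) and the P17 library 5253 RPM (5212 to 5295). It thus stood at rank 14 among all miRNAs at P1 and at ranks 23 and 26 at the later ages. The ratio of the libraries gives a level 3.57-fold lower at P7 than at P1 (3.54 to 3.60), and only 1.02-fold lower at P17 than at P7 (1.01 to 1.03).

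MiR-128-3p, which is abundant in brain and known to restrain neuronal excitability, followed the same course with a smaller step. P1 had 9375 RPM (9319 to 9431), P7 had 4134 RPM (4099 to 4169) and P17 had 4060.5 RPM (4024 to 4097). The level at P7 was 2.27-fold lower than at P1 (2.24 to 2.29), and the levels at P7 and P17 were again close. In miR-153-3p, which is known to act on messenger RNAs of synaptic vesicle proteins, P1 stood at 268 RPM (258 to 277), P7 at 106.5 RPM (101 to 112) and P17 at 102 RPM (96.3 to 108). Its P7 level was 2.51-fold lower than at P1 (2.36 to 2.68), and the ratio of P17 to P7 was 0.957 with an interval that includes 1 (0.885 to 1.04). In RPM the step thus lay between P1 and P7 for all 3 of these miRNAs.

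MiR-139-5p, a brain-expressed miRNA, had 437 RPM in the P1 library (425 to 449), 172 RPM in that of P7 (165 to 179) and 191 RPM in that of P17 (183 to 199). It was 2.54-fold lower at P7 than at P1 (2.41 to 2.67) and then 1.11 times higher at P17 than at P7 (1.05 to 1.18). MiR-149-5p, the third most abundant of the set, was at 1103 RPM on P1 (1084 to 1122), at 475 RPM on P7 (463 to 487) and at 804 RPM on P17 (788 to 820). It was 2.32-fold lower at P7 than at P1 (2.25 to 2.39), but its P17 level was 1.69 times that of P7 (1.64 to 1.75), so that in RPM P17 lay between the other ages. At P17 it stood 1.37-fold below P1 (1.34 to 1.41).

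MiR-138-5p, known for its action on dendritic spines, was the member with the largest difference between P7 and P17. P1 had 161 RPM (154 to 168), P7 had 100 RPM (94.7 to 106) and P17 had 200.1 RPM (192 to 208), which in RPM makes P17 the highest age and P7 the lowest. The level at P17 was 2.00 times that at P7 (1.87 to 2.14). On the log2(RPM + 1) scale this is 0.99, just under the 2-fold criterion of 1 that is applied below. MiR-137-3p, a regulator of neural differentiation and dendrite growth, was the least abundant, with 103, 99 and 143 reads at the 3 ages. In RPM, P1 was at 9.01 (7.43 to 10.9), P7 at 7.76 (6.37 to 9.44) and P17 at 12.3 (10.4 to 14.4). The ratio of P7 to P1 was 0.861 and its interval includes 1 (0.647 to 1.15), whereas P17 was 1.58 times P7 (1.21 to 2.06) and 1.36 times P1 (1.05 to 1.77).

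**Figure D1:**
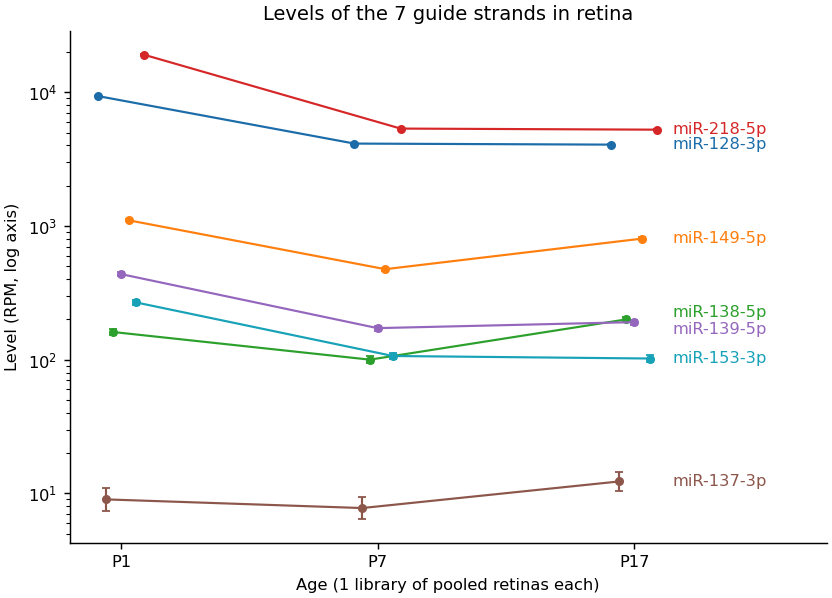
Level of each of the 7 guide strands in RPM (log axis) against age, with 1 library per age and bars for the 95% Wilson interval, shifted sideways for clarity. The line of miR-218-5p drops from 19098 to 5353 RPM between P1 and P7, while miR-138-5p and miR-137-3p have their highest point at P17.

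Within each library the order of the levels was nearly the same. At P1 and P7 it ran, from high to low, miR-218-5p, miR-128-3p, miR-149-5p, miR-139-5p, miR-153-3p, miR-138-5p and miR-137-3p. At P17 miR-138-5p had moved ahead of miR-139-5p and miR-153-3p. Neighbours differed beyond counting error except miR-153-3p and miR-138-5p at P7, with a ratio of 1.07 (0.986 to 1.15), and miR-138-5p and miR-139-5p at P17, with a ratio of 1.05 (0.989 to 1.11). The highest and the lowest member were 2119-fold apart at P1, 690-fold at P7 and 428-fold at P17. Small RNA library kits capture different sequences with different efficiency, so the order between miRNAs is that of the reads.

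Changes were then counted over 2-fold, the fold criterion of the study, as a difference of over 1 in log2(RPM + 1). The study also set a limit on the adjusted P-value, which was not applied here, so the calls are not those of the study. From P1 to P7, 5 of the 7 members were over 2-fold lower (miR-218-5p, miR-139-5p, miR-153-3p, miR-149-5p and miR-128-3p) and 0 were higher. Of all 648 miRNAs past the abundance filter, 44.8% were over 2-fold lower in the same comparison and 3.09% higher. The median log2 change was -1.21 in the set and -0.87 in all miRNAs. From P7 to P17, 0 of the 7 members passed in either direction, against 14.0% of all miRNAs higher and 11.6% lower, and the medians were 0.15 and -0.05. From P1 to P17, 4 members were over 2-fold lower (miR-218-5p, miR-153-3p, miR-128-3p and miR-139-5p) and 0 higher, with 46.8% of all miRNAs lower and 10.5% higher. The medians were -1.19 and -0.91. The name of the set refers to what these miRNAs are known for. In log2(RPM + 1) no member was over 2-fold higher at a later age, with miR-138-5p just under the criterion from P7 to P17 at 0.99.

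**Figure D2:**
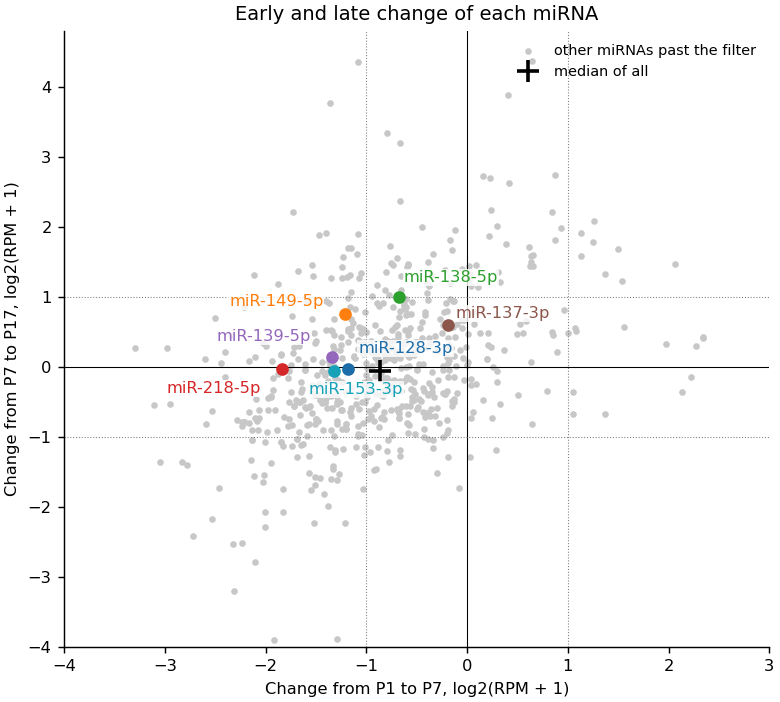
Change of each of the 648 miRNAs from P1 to P7 (horizontal) and from P7 to P17 (vertical) in log2(RPM + 1), with the members in colour, the median of all as a cross and dotted lines at 2-fold, where 4 of the 648 points lie outside the axes. MiR-218-5p, miR-128-3p, miR-153-3p and miR-139-5p lie left of the cross near the horizontal zero line, and miR-149-5p, miR-138-5p and miR-137-3p lie above it.

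Since 477 of the 648 miRNAs had a lower RPM at P17 than at P1, each member was also read against the median miRNA. Relative to the median of all 648, the P1 to P17 change of miR-218-5p was -0.95 on the log2 scale, and those of miR-153-3p, miR-128-3p and miR-139-5p were -0.47, -0.30 and -0.28. MiR-149-5p stood at 0.45, miR-138-5p at 1.22 and miR-137-3p at 1.32, all above the median. Only 25.2% of all miRNAs had a lower change than miR-218-5p, whereas those of miR-138-5p and miR-137-3p were above 80.4% and 81.9% of them.

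The direction of several members depended on how the libraries were scaled. The miR-183, miR-96 and miR-182 cluster, which marks photoreceptors, took 7.79% of the P1 reads in its 5p forms, 30.4% of those of P7 and 30.1% of those of P17. With all 6 mature forms of this cluster left out of the library totals, the typical miRNA (the median of all 648) changed by -0.54 on the log2 scale from P1 to P7 and -0.56 from P1 to P17, in place of -0.87 and -0.91. With median-of-ratios size factors, which place the typical miRNA near 0, the median of the 648 log2 changes was shifted by 0.83 from P1 to P7 and by 0.92 from P1 to P17. From P1 to P7, 0 of the 7 members then passed the criterion, with 9.57% of all miRNAs higher and 11.0% lower, and the sign turned for miR-137-3p (-0.19 in RPM and 0.65 here) and miR-138-5p (-0.68 and 0.27). In the same comparison miR-218-5p stood at -0.87, miR-153-3p at -0.37 and miR-128-3p at -0.22. From P7 to P17 miR-138-5p passed at 1.08, with 16.0% of all miRNAs higher and 10.6% lower. From P1 to P17 the same scaling put miR-137-3p (1.34) and miR-138-5p (1.35) over 2-fold higher and 0 members over 2-fold lower, with 25.5% of all miRNAs higher and 23.9% lower. MiR-218-5p stood at -0.82 under it, miR-153-3p at -0.34, miR-128-3p at -0.16 and miR-139-5p at -0.15. For miR-149-5p the sign of the P1 to P17 change turned, from -0.46 in RPM to 0.59. Among all called miRNAs the share of lower ones went from 93.5% to 53.4% for P1 to P7, and from 81.7% to 48.4% for P1 to P17.

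**Figure D3:**
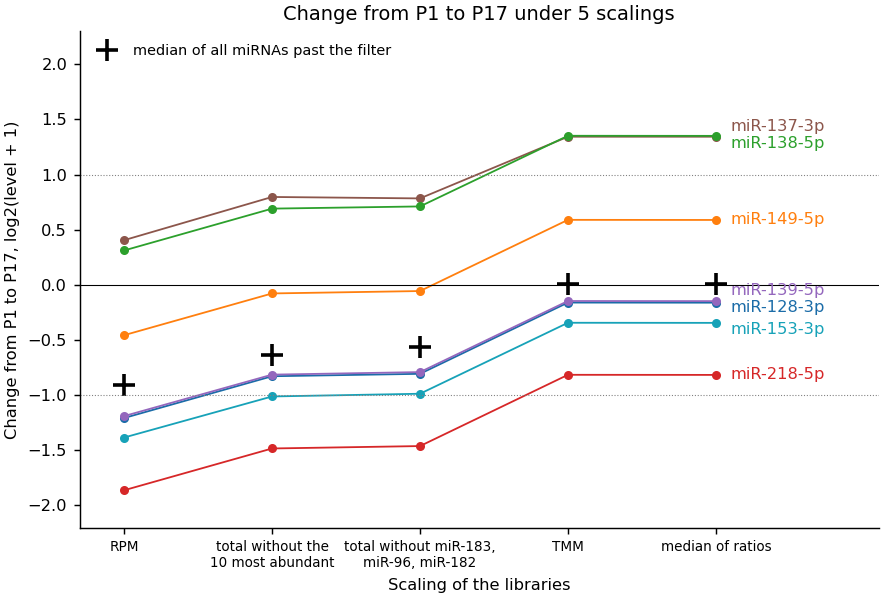
Change of each member from P1 to P17 on the log2(level + 1) scale under 5 scalings of the libraries, with crosses for the median of all 648 miRNAs and dotted lines at 2-fold. All members shift upward together from RPM to the median-of-ratios scaling, where miR-137-3p and miR-138-5p lie over 1 and miR-218-5p at -0.82, and their order from top to bottom stays nearly fixed.

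A ratio between 2 miRNAs of the same libraries does not depend on the scaling, and by this measure the set was divided. The 21 possible pairs were compared. From P1 to P17 the interval of the change in their ratio included 0 for 2 pairs, miR-128-3p with miR-139-5p at -0.01 (-0.09 to 0.06 on the log2 scale) and miR-137-3p with miR-138-5p at 0.13 (-0.26 to 0.52). The widest gap was between miR-137-3p and miR-218-5p, whose ratio was higher at P17 by 2.31 (1.93 to 2.69). MiR-138-5p gained on miR-218-5p by 2.18 (2.09 to 2.27), and miR-149-5p gained on it by 1.41 (1.36 to 1.45). From P7 to P17 the interval included 0 for 5 pairs, and miR-218-5p, miR-128-3p and miR-153-3p kept their ratios within counting error in all 3 of their pairs, with changes of 0.00 for miR-128-3p to miR-218-5p (-0.02 to 0.03), 0.04 for miR-128-3p to miR-153-3p (-0.08 to 0.15) and -0.04 for miR-153-3p to miR-218-5p (-0.15 to 0.08). MiR-138-5p gained 1.03 on miR-128-3p in the same interval of age (0.93 to 1.13). The late difference of miR-138-5p from these 3 was therefore larger than counting error whatever the scaling.

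In length, the 4 members that were over 2-fold lower at P17 have 21 or 22 bases, and miR-137-3p, miR-138-5p and miR-149-5p have 23. Of the 540 filtered miRNAs with a sequence in the table, 104 have 21 bases, 286 have 22 and 92 have 23. Their median P1 to P17 change was -0.94 at 21 bases, -0.74 at 22 and -1.0 at 23. Among these miRNAs the median was not higher at 23 bases than at 21 or 22. Whether length has a part in the division of the set was not tested.

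The members were next set beside 16 other miRNAs known from neurons, all past the filter. The 16 are not all separate units, as miR-9-5p with miR-9-3p and miR-129-5p with miR-129-2-3p are arms of the same miRNA. MiR-212-3p had only 10, 17 and 58 reads at P1, P7 and P17. From P1 to P17, 6 of these 16 were over 2-fold higher and 3 lower, where 10.5% and 46.8% of all miRNAs passed. Their median was 0.18 against -1.19 in the set. From P7 to P17, 9 of the 16 were over 2-fold higher and 0 lower, against 14.0% and 11.6% of all miRNAs. Their median was 1.22, and 0 of the 7 members passed. MiR-124-3p, the most widely used neuronal miRNA, had 1544 RPM in the P1 retina, 2055 RPM in that of P7 and 12777 RPM in that of P17. MiR-129-5p went from 1258 to 10438 RPM between P1 and P17, and miR-132-3p, which is induced by neuronal activity, from 29.1 to 131 RPM. These 3 had their highest level at P17, whereas miR-218-5p, miR-128-3p and miR-153-3p had theirs at P1. The 3 do not stand for the whole list, in which 9 of the 16 had any rise from P1 to P17 and 7 any fall. Among those with a fall was miR-9-5p, with a log2 change of -0.96. Against 1 read of miR-124-3p miR-218-5p had 12.4 reads in the P1 library, 2.61 in that of P7 and 0.411 in that of P17. The log2 change of that ratio from P1 to P17 was -4.91 (-4.94 to -4.88), and for the other members it lay between -4.44 for miR-153-3p and -2.60 for miR-137-3p. Every member thus lost ground to miR-124-3p, whatever the scaling. Like miR-218-5p, miR-7a-5p, miR-488-3p and miR-134-5p were over 2-fold lower at P17 than at P1, with log2 changes of -1.74, -1.74 and -1.50. With median-of-ratios size factors, 9 of the 16 were over 2-fold higher from P1 to P17 and 0 lower, against 25.5% and 23.9% of all miRNAs.

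**Figure D4:**
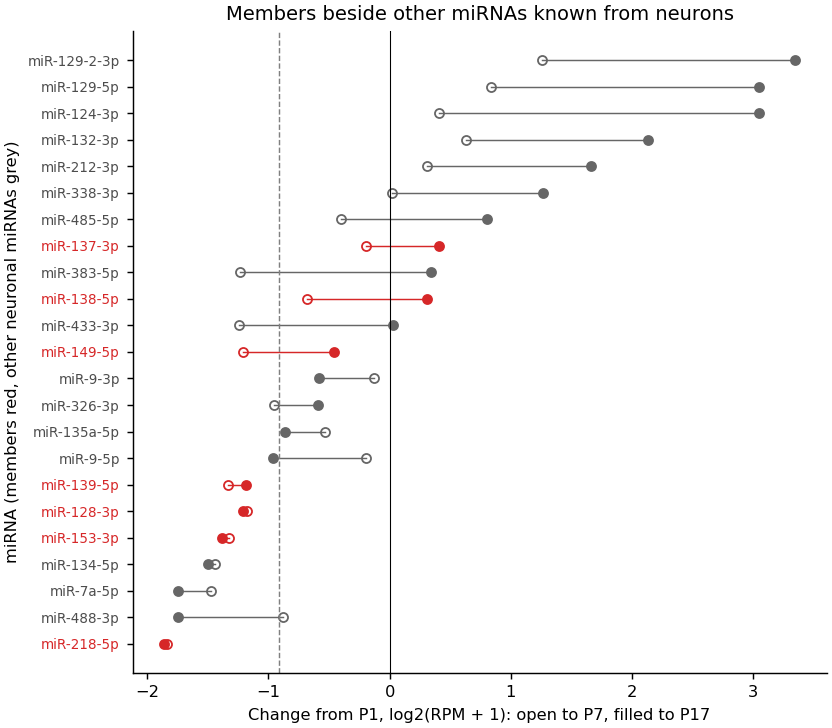
Change from P1 to P7 (open circles) and from P1 to P17 (filled circles) in log2(RPM + 1) for the 7 members in red and 16 other miRNAs known from neurons in grey, with a dashed line at -0.91, the median P1 to P17 change of all 648 miRNAs. The members occupy the range from -1.86 to 0.41 at P17, while miR-129-2-3p, miR-129-5p and miR-124-3p reach 3.05 or more.

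Markers of the cells that a dissected retina can hold also differed between the libraries. Neuronal markers (miR-9-5p and miR-124-3p, 2 of 2 present at every age) summed to 14.6%, 12.8% and 8.68% of the reads at P1, P7 and P17, with miR-9-5p giving most of them and going the opposite way to miR-124-3p, from 144259 RPM at P1 to 74011 RPM at P17. Pigment epithelium markers summed to 15211, 7226 and 14334 RPM, but miR-204-5p went from 14662 RPM at P1 to 9019 RPM at P17 and miR-211-5p from 550 to 5315 RPM. Endothelial markers were at 1261, 3643 and 8530 RPM, mural cell markers at 195, 376 and 1492 RPM, and lens and cornea markers at 103, 119 and 570 RPM. In the last sum miR-184-3p went from 101 RPM at P1 to 569 RPM at P17 and miR-205-5p from 2.71 to 0.69 RPM. Leukocyte (13.0 to 18.1 RPM), erythroid (116 to 161 RPM) and skeletal muscle markers (90.0 to 240 RPM) were low, and 0 of the markers were at 0 at any age. The part of these differences in the changes of the 7 members was not tested.

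The other arm of the hairpin is usually degraded, and where it differs between hairpins with the same guide strand, its reads can be told apart by hairpin. Of the 10 other arms, 5 passed the abundance filter. For miR-128-3p the hairpins lie in introns of R3hdm1 (Mir128-1, chr1:128202361-128202430, plus strand) and Arpp21 (Mir128-2, chr9:112118636-112118711, minus strand), which encodes a phosphoprotein of dopamine-responsive neurons. They are shown because the arms that tell them apart differ, and capitals mark the other arm and the guide strand.

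Mir128-1: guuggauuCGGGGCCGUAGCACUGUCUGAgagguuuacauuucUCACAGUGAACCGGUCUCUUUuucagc

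Mir128-2: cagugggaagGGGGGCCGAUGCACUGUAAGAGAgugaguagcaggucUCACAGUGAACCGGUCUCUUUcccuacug

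The 2 other arms share 16 of 21 aligned bases. MiR-128-1-5p had 120, 31 and 29 reads at the 3 ages, and miR-128-2-5p had 10, 2 and 2. The arm of Mir128-1 thus made up 92.3% of these reads at P1 (exact binomial interval 86.3 to 96.2), 93.9% at P7 (79.8 to 99.3) and 93.5% at P17 (78.6 to 99.2). The share differed by less than counting error between ages, and since arms differ in stability it is not a measure of transcription. Per 1000 guide reads the other arms had 1.21, 0.626 and 0.655 reads. The log2 change of this ratio from P1 to P17 was -0.89 (-1.51 to -0.32).

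The hairpins of miR-138-5p lie at chr9:122682876-122682974 (Mir138-1) and chr8:94324311-94324381 (Mir138-2), both on the plus strand. Their other arms match in 18 of 20 aligned bases but start at different bases.

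Mir138-1: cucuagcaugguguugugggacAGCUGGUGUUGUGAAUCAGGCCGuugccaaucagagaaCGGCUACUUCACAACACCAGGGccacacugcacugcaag

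Mir138-2: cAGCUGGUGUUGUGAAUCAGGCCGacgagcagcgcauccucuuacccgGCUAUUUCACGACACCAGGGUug

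MiR-138-1-3p had 16, 19 and 7 reads at the 3 ages, and miR-138-2-3p had 30, 18 and 27. Of both arms together, miR-138-1-3p made up 34.8% at P1 (21.4 to 50.2), 51.4% at P7 (34.4 to 68.1) and 20.6% at P17 (8.70 to 37.9). The ratio of miR-138-1-3p to miR-138-2-3p was lower at P17 than at P7 by a log2 change of -2.03 (-3.78 to -0.36), whereas its change from P1 to P17 was -1.04 with an interval that includes 0 (-2.77 to 0.58). Per 1000 guide reads the other arms had 29.0 at P7 and 14.6 at P17, a log2 change of -0.99 (-1.72 to -0.27), while the guide strand itself was 2.00 times higher. Both statements rest on fewer than 50 reads of the other arms per library.

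For miR-149-5p the other arm is rich in G, with 81.8% of its bases G or C.

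Mir149: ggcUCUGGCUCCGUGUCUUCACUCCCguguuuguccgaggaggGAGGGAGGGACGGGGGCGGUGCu

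MiR-149-3p had 33, 16 and 1 reads from the youngest to the oldest age, although the guide strand had 12604, 6062 and 9374. Per 1000 guide reads this is 2.62, 2.64 and 0.107, and the log2 change from P1 to P17 was -4.62 (-9.96 to -2.04). The value at P17 rests on 1 read. In contrast, miR-139-3p stayed at 32.7, 29.1 and 40.0 reads per 1000 reads of miR-139-5p, a P1 to P17 change of 0.29 (-0.11 to 0.68). The other arms of miR-218-5p had at most 5 reads together at any age, which is too few to tell Slit2 from Slit3.

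**Figure D5:**
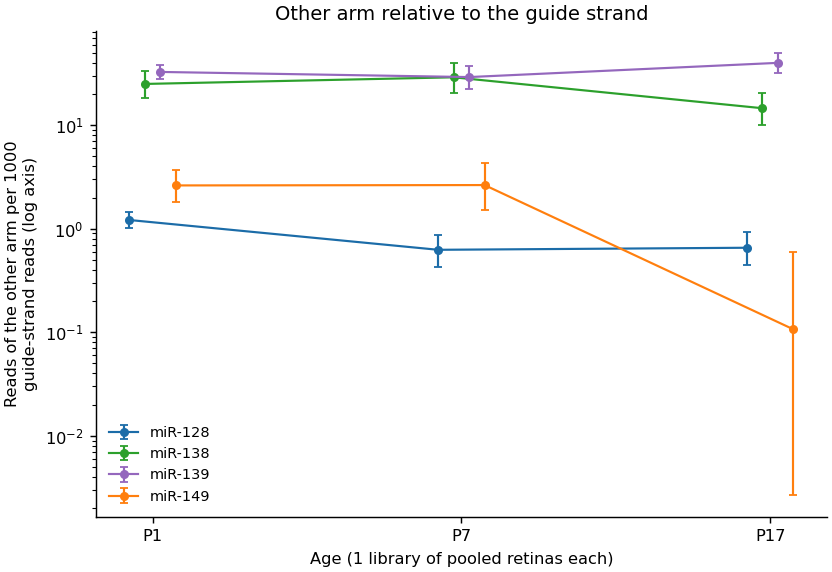
Reads of the other arm per 1000 guide-strand reads (log axis) against age for miR-128, miR-138, miR-139 and miR-149, with bars for the 95% interval. The point of miR-149 drops to 0.107 at P17 on 1 read with a bar that spans a wide range, while miR-139 stays between 29.1 and 40.0.

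For each member the 2 miRNAs with the most similar log2 changes from P1 were sought among all others past the filter, over the 3 libraries. The closest to miR-138-5p was miR-873a-3p, with 11.2, 6.74 and 14.5 RPM at the 3 ages and a Euclidean distance of 0.03. MiR-139-5p was closest to miR-107-3p (529, 203 and 216 RPM, distance 0.07), and miR-128-3p to miR-411-3p (109, 46.4 and 44.8 RPM, distance 0.04). Those nearest to miR-218-5p were miR-466d-3p at a distance of 0.07 and miR-744-3p at 0.08. For miR-153-3p and miR-137-3p the nearest were miR-7224-3p (0.03) and let-7k (0.05), which rest on at most 45 reads in a library. MiR-149-5p had its nearest neighbour in miR-147-3p (0.09), with 26, 6 and 16 reads. With 3 libraries, short distances arise easily, and they are given as a description.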

How the data were processed

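Small RNA libraries were made with the NEBNext small RNA kit from total RNA of pooled retinas, 1 library per age, and sequenced on an Illumina HiSeq. Groups were taken from the labels. The study's legend gives n = 5 per group, whereas the labels give 5 pooled eyes per library and the files hold 1 library per age, so each age was treated as n = 1. Adaptors were trimmed and poor reads discarded by the authors, who mapped what remained to mm10. The study's methods name HISAT2, whereas the submitters' processing notes name FastQC and BWA, and the annotation and the counting rule are not given in the sources used here. The authors deposited an unnormalized read count for each of 1915 mature miRNAs. The deposited RPM is each count as a share of all miRNA reads in the same library, to within 0.0192 RPM. One library per age allowed no count model, and DEseq, used by the authors, was not run. How reads of identical guide strands were shared between hairpins could not be varied.

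The RPM values were used as given. Changes are differences of log2(RPM + 1), a scale that damps changes at low levels, and a miRNA with a mean of at least 1 RPM was counted where the change exceeded 1. RPM has Wilson intervals, ratios of 2 libraries exact binomial intervals, and ratios of ratios exact conditional intervals, all at 95%. At these depths 1 read is worth 0.0784 to 0.0875 RPM, and 3 reads, taken as the floor, are worth 0.235 to 0.263 RPM. Alternatives were pseudocounts of 0.1, 5 and none, fold criteria of 1.5 and 4, median-of-ratios size factors (1.50 at P1, 0.862 at P7 and 0.743 at P17, from 644 miRNAs), edgeR's TMM factors (1.60, 0.808 and 0.774), and library totals without those among the 10 most abundant in at least 1 library (13 miRNAs) or without the photoreceptor cluster (6 mature forms of miR-182, miR-183 and miR-96). The TMM factors were applied to the library sizes, with no test.

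The members, the list of 16 neuronal miRNAs, the markers and the alternatives were chosen with earlier results of these data known. The miRNAs named are the members, the other arms of their hairpins, the list of neuronal miRNAs, the markers, miRNAs with a member's seed, and for each member the 2 with the nearest pattern. Sequences and hairpin positions came from RefSeq (GRCm38), where 17 of 17 members and other arms and 1623 of all 1915 miRNAs matched by name, and host genes from GENCODE. The fold calls and the intervals were tried on simulated counts that held counting error only. The scalings were not tried on them. Calculations ran in R 4.3.3 with edgeR 4.0.16 and in Python 3.11.15 with scipy 1.17.1, pandas 2.3.3, numpy 2.4.6 and matplotlib 3.10.9.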

Additional observations from a re-analysis of the deposited data

How the results depend on the processing

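The fold between ages depended on the scaling, while the ratios between members do not. From P1 to P7 the 5 members over 2-fold lower became 0 with median-of-ratios size factors, 0 with TMM factors, 1 with a total without the 10 most abundant miRNAs, 1 with a total without the photoreceptor cluster (miR-182, miR-183 and miR-96), and 0 at a fold of 4. Of all miRNAs 11.0, 10.6, 22.99, 28.5 and 8.64% were lower under these settings in turn. From P7 to P17 the number over 2-fold higher was 1 in place of 0 with median-of-ratios size factors, with TMM factors and without a pseudocount, and 3 at a fold of 1.5, with 16.0, 15.7, 16.5 and 22.7% of all miRNAs higher. From P1 to P17, 2 members instead of 0 were higher with either set of factors, as were 25.5% of all miRNAs under each. The 4 lower ones became 0 with median-of-ratios size factors, 0 with TMM factors, 2 without the 10 most abundant, 1 without the photoreceptor cluster, and 0 at a fold of 4, where 23.9, 23.9, 40.9, 38.3 and 21.8% of all miRNAs were lower. The log2 change of the summed level from P1 to P17, -1.52 in RPM, was -0.47 with median-of-ratios size factors, -0.47 with TMM factors, -1.14 without the 10 most abundant, -1.12 without the photoreceptor cluster, and -1.08 without miR-218-5p, a setting chosen after seeing the data. For P7 to P17 a total without the 10 most abundant gave 82 miRNAs higher and 149 lower among all 648, against 91 and 75. No called change turned its sign. Among changes not called, the sign turned under at least 1 scaling for 2 members from P1 to P7, 4 from P7 to P17 and 1 from P1 to P17 (miR-149-5p). Of the 147 values for the change of a member under alternative settings, 81 stayed within their counting interval and 66 moved. Those that moved all did so under another scaling of the libraries, and none under another pseudocount. Why the scalings differ was not tested. No paired analysis was possible because there is only 1 library at an age, and no replicate could be left out. Depth limits miR-137-3p and the other arms, whose intervals are the widest.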

Other observations

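Some shorter stretches of the members' seeds occur in other miRNAs of the retina. These were looked for after the values had been seen. Bases 2 to 7 of miR-128-3p are the same as bases 3 to 8 of miR-27a-3p and miR-27b-3p, as the capitals, bases 2 to 8 of each, show.

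mmu-miR-128-3p: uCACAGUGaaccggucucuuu

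mmu-miR-27b-3p: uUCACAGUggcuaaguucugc

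MiR-27b-3p stood at 3771, 2504 and 3567 RPM from the youngest to the oldest age, so it had fewer reads than miR-128-3p at every age but lay closest to it at P17. MiR-27a-3p was at 299.8, 170.1 and 364 RPM. Bases 3 to 8 of miR-139-5p equal bases 2 to 7 of miR-101b-3p (1520, 1077 and 1044 RPM) and of miR-582-5p (35.6, 16.3 and 7.72 RPM). Bases 2 to 7 of miR-153-3p equal those of miR-448-3p, which had 0, 9 and 19 reads. A shared stretch is a description of the letters and does not show that the miRNAs act on the same messenger RNAs.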
